A study of Mus musculus with 12 samples.

Results

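The diet by vector interaction asks which genes of mouse tibialis anterior, the front muscle of the shin, answered alternate day fasting (ADF) differently when the muscle had been transduced with a Crtc2 expression vector rather than with GFP. For each gene it is the log2 response to ADF in Crtc2 muscle minus the log2 response to ADF in GFP muscle, so a positive value means that the change with fasting was more upward, or less downward, with Crtc2. All 12 libraries of the series enter it, 3 from each of 4 groups: ADF Crtc2, fed Crtc2, ADF GFP and fed GFP. The mice were C57BL/6 males of 13 weeks, the ADF groups had gone through 3 rounds of fasting and the fed groups ate ad libitum, and GFP is described as the empty vector. The labels do not say how the vectors were delivered, which cells of the muscle took them up, whether each library is a different mouse or whether Crtc2 and GFP muscles share one. P-values therefore speak of variation among these 12 libraries, some of which may be technical. The comparison bears on the subject of the series, the Crtc2 and Creb1 network of muscle during intermittent fasting.

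Crtc2 is a coactivator that moves to the nucleus when cyclic AMP or calcium signals rise, and there assists Creb1 at promoters that carry the cyclic AMP response element (CRE). In muscle this pathway follows adrenergic signalling and exercise, and among its known targets are the Nr4a receptors, Ppargc1a, Sik1 and Irs2. Fasting itself raises catecholamines and glucocorticoids, lowers insulin, and switches muscle towards burning fatty acid in mitochondria.

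No gene passed an adjusted p of 0.05 for the interaction (0 of 16007 genes tested, 0%) in edgeR's quasi-likelihood test with Benjamini-Hochberg adjustment. The smallest adjusted p was 0.174, shared by 7 genes: Tagln2, Irs2, Gm13340, Cd3g, Stard10, Tubb5 and Mov10. At an unadjusted p under 0.05 there were 1240 genes, 7.75% of those tested, where 800.4 would be 5%. Of the 1240, 430 were positive (2.69% of genes tested) and 810 negative (5.06%), and with library totals as scaling 207 were positive and 1076 negative. DESeq2 called 111 genes on the same counts, 26 positive and 85 negative, and 67 of these had a group with no counts at all. Without the filter on low counts edgeR called 67 genes, 10 positive and 57 negative, and limma voom called 0 with 1495 genes at an unadjusted p under 0.05. DESeq2 and the unfiltered fit shared 23 genes (20.7% of the DESeq2 calls and 34.3% of the unfiltered calls), 4 positive and 19 negative. Among the shared genes were Stard10 on the positive side, and Tagln2, Tubb5, Cpxm2, Erlin2, Oas2, Sh3pxd2b, Crip1, Laptm5, Rrad, Gbp3, Adcy7, Irs2 and Cd3g on the negative side. The interaction values below are therefore measurements that did not pass that test, and "rose" or "fell" is used only for the response to fasting within a vector where that response passed.

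The interaction carries the error of 4 groups. Among the 7789 genes that averaged 10 CPM or more (CPM are counts scaled to library size), its median standard error was 0.467 on the log2 scale, against 0.331 for ADF against fed within either vector. Libraries held 24232450 to 34610417 counts and 14313 to 17226 detected genes. Zeros were frequent at low level: of the genes averaging 1 to 3 CPM, 21.6 to 30.1% were at 0 in an ADF Crtc2 library and 4.83 to 35.9% in a fed Crtc2 library. In GFP muscle the shares were 5.87 to 19.4% under ADF and 12.1 to 32.7% when fed. The balance between positive and negative genes followed expression level. Below a mean of 1 CPM, 1.58% of genes were positive and 9.11% negative at an unadjusted p under 0.05. Above 100 CPM the shares were 10.9% positive and 2.86% negative, and 72.3% of the 1223 genes had a positive interaction whatever their p. Whether the zeros have a part in the negative excess of low genes was not tested.

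**Figure D1:**
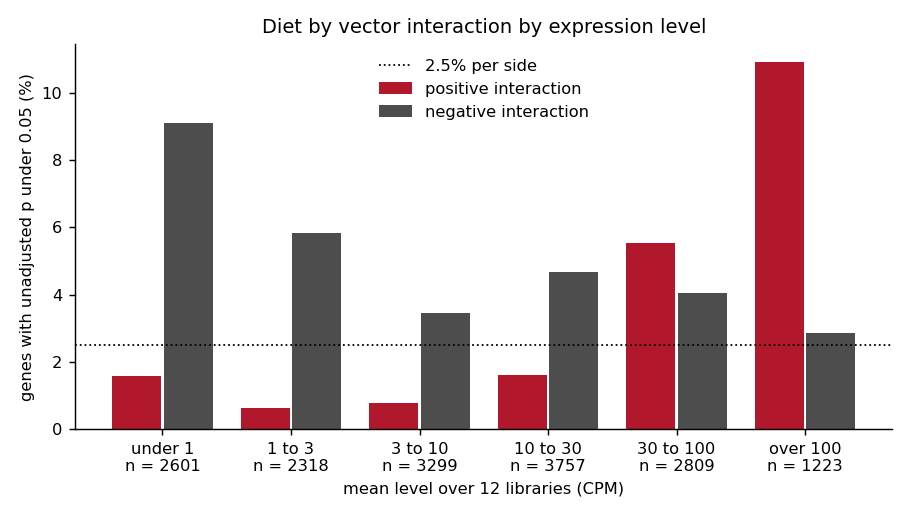
Share of genes in each class of mean level (CPM over 12 libraries, number of genes under each class) with a positive (red bars) or negative (grey bars) diet by vector interaction at an unadjusted p under 0.05. Negative genes prevail below 30 CPM, 9.11% against 1.58% positive under 1 CPM, and positive genes above 30 CPM, 10.9% against 2.86% negative over 100 CPM.

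The responses to fasting in the 2 vectors resembled each other in outline. In Crtc2 muscle 1758 genes (11%) passed for ADF against fed, 1009 higher (6.3% of genes tested) and 749 lower (4.68%), and in GFP muscle 1140 (7.12%) passed, 650 higher (4.06%) and 490 lower (3.06%). With library totals as scaling 511 were higher and 1234 lower in Crtc2 muscle, and 476 higher and 596 lower in GFP muscle. The count in Crtc2 muscle was 1129 without the ADF Crtc2 replicate 1, and that in GFP muscle was 711, 677 and 740 without the ADF GFP replicates 1, 2 and 3. Passing in both were 762 genes, of which 761 changed the same way; the exception was Stard10. A further 996 genes passed in Crtc2 muscle alone and 378 in GFP muscle alone. Of the 996, 916 had the same sign in GFP muscle and 330 had an interaction at an unadjusted p under 0.05, but none passed the interaction test, so passing in one vector does not show that the response differed. Of the 378, 355 had the same sign in Crtc2 muscle and 108 had such an interaction. Across the 7789 genes at 10 CPM or more the responses had a Pearson correlation of 0.72 and a Spearman correlation of 0.67, with no library shared between them, as a description across genes that are not independent replicates. The vector contrasts were less even: 116 genes (0.725%) passed for Crtc2 against GFP under ADF, 12 higher (0.075%) and 104 lower (0.65%), and 0 passed in fed muscle (871, or 5.44%, at an unadjusted p under 0.05), where DESeq2 called 64. The 116 became 25 without either the ADF Crtc2 replicate 1 or the ADF GFP replicate 3, 51 without the ADF Crtc2 replicate 3, and 69 without the ADF GFP replicate 1.

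**Figure D2:**
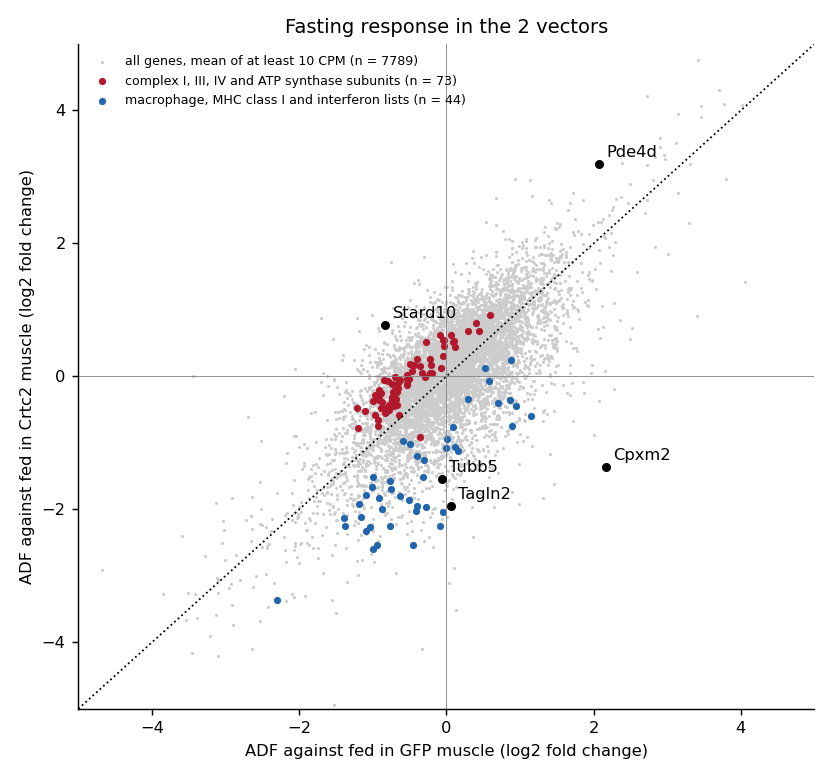
Log2 response to ADF in Crtc2 muscle (vertical axis) against the response in GFP muscle (horizontal axis) for the 7789 genes averaging 10 CPM or more, of which 4 lie outside the axes; the dotted line marks equal responses, so the distance above or below it is the interaction. Subunits of complexes I, III, IV and ATP synthase (red) lie above the line but for 1, and genes of the macrophage, MHC class I and interferon lists (blue) lie mostly below it; Stard10 and Cpxm2 sit in quadrants of opposite sign.

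The transduced gene was examined first. Crtc2 stood at 42.8, 40.6 and 31.4 CPM in ADF Crtc2 muscle and 64.9, 58.2 and 77.9 CPM in fed Crtc2 muscle. The GFP libraries had 19.7, 16.1 and 23.6 CPM under ADF and 29.2, 17.3 and 24.02 CPM when fed. Every Crtc2 library was above every GFP library of the same diet, and the 3 ADF Crtc2 libraries were below the 3 fed Crtc2 libraries. Many of the genes tested showed such a separation of 3 against 3 libraries. For Crtc2 against GFP, 9.6% separated upward and 11.8% downward under ADF, and 4.7% and 3.84% in fed muscle. For ADF against fed the shares were 14.8% and 15.7% in Crtc2 muscle, and 14.3% and 11.3% in GFP muscle. Where a group of a gene or list below stands apart from all other libraries, no share over all genes is given. The level of Crtc2 under ADF was 1.93-fold that of GFP muscle (adjusted p = 0.127) and in fed muscle 2.85-fold (adjusted p = 0.134), so the excess of Crtc2 did not itself pass over all genes. The interaction of Crtc2 was -0.56 ± 0.39 (adjusted p = 0.764). The response to ADF was -0.81 ± 0.27 in Crtc2 muscle (adjusted p = 0.0623) and -0.24 ± 0.27 in GFP muscle (adjusted p = 0.721). Deposited counts do not separate vector-borne from native Crtc2 messages.

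All 8 members of the CRTC and CREB family list, which holds Crtc2 itself beside other coactivators and DNA-binding factors, had a negative interaction that did not pass, with a median of -0.78 against -0.08 for all genes tested, of which 46.2% were positive. Crebbp, a coactivator, had -0.034 ± 0.43 and was positive in 8 of the 22 alternatives, and Ep300, its relative, had -0.22 ± 0.50 and was positive in 1. For Crtc3, a second coactivator of the family, the libraries read 18.4, 14.7 and 21.8 CPM in ADF Crtc2 muscle and 24.9, 15.4 and 20.6 CPM in fed Crtc2 muscle. With GFP the values were 20.4, 22.02 and 24.2 CPM under ADF and 6.299, 9.896 and 13.9 CPM in fed muscle. Only the fed GFP libraries stood low, below all the others, and the interaction was -1.29 ± 0.53 (unadjusted p = 0.0227, adjusted p = 0.597), with a response to ADF of 1.15 ± 0.38 in GFP muscle that did not pass (adjusted p = 0.0712). Creb1, the main DNA-binding partner, had -0.62 ± 0.60 (adjusted p = 0.876), and Crtc1 had -1.12 ± 0.76 (adjusted p = 0.762). Summed over the 8 genes, Crtc2 included, the level was 236, 208 and 185 CPM in ADF Crtc2 muscle and 204, 191 and 242 CPM in fed Crtc2 muscle. The values in ADF GFP muscle were 188, 189 and 194 CPM, and in fed GFP muscle 103, 117 and 137 CPM. The fed GFP libraries lay below all 9 others.

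Known targets of CREB and CRTC leaned the same way without passing: 22 of 28 tested were negative, with a median of -0.71, 5 of them and 1 positive gene at an unadjusted p under 0.05. The 5 became 2 without the ADF Crtc2 replicate 1 and 9 without the fed GFP replicate 1. The median level of the list was 14.6 CPM. Of all genes from 10 to 30 CPM, 45.4% were positive whatever their p, and 4.66% were negative at that p. Irs2, an adaptor of the insulin receptor, was at 11.1, 7.82 and 6.4001 CPM in ADF Crtc2 muscle and 2.502, 0.556 and 0.666 CPM in fed Crtc2 muscle. ADF GFP muscle had 16.9, 11.2 and 9.91 CPM and fed GFP muscle 0 in all 3 libraries. Against a floor of 3 counts per library, which covers counting error only, ADF GFP muscle was at least 118-fold higher than fed GFP muscle. As low counts may stand for fewer fragments, this bound may be too high. Irs2 rose in both vectors (adjusted p = 0.0487 in Crtc2 muscle and 4.82e-05 in GFP muscle), and in Crtc2 muscle the fed level averaged 1.24 CPM. Egr1, an immediate early transcription factor, had 4.94 ± 2.87 CPM in ADF Crtc2 muscle and 21.4 ± 8.03 CPM in fed Crtc2 muscle. Among GFP libraries, ADF gave 13.1 ± 4.38 CPM and feeding 13.02 ± 10.01 CPM (SD, n = 3 each). It fell with ADF in Crtc2 muscle (-2.12 ± 0.58, adjusted p = 0.0204) and was 0.0034 ± 0.56 in GFP muscle, with an interaction of -2.12 ± 0.80 (adjusted p = 0.559). Nr4a3, an orphan nuclear receptor induced by cyclic AMP, was at 35.8, 16.4 and 15.6 CPM in ADF Crtc2 muscle and 14.2, 6.86 and 4.22 CPM in fed Crtc2 muscle. For GFP, the ADF libraries had 46.4, 20.2 and 12.8 CPM and the fed libraries 0, 2.99 and 1.75 CPM. Its fed values in Crtc2 muscle lay above those in GFP muscle without overlap, as in 4.7% of genes tested. The interaction of Nr4a3, -2.63 ± 1.33, did not pass (adjusted p = 0.67).

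Against the direction of the list, Pde4d, a phosphodiesterase that degrades cyclic AMP, read 190.4, 135 and 125 CPM in ADF Crtc2 muscle and 11.1, 21.4 and 16.4 CPM in fed Crtc2 muscle. GFP muscle had 129.9, 107 and 114 CPM under ADF and 27.95, 27.2 and 28.3 CPM when fed. ADF libraries were above fed libraries in both vectors without overlap, as in 14.8% of genes tested in Crtc2 muscle and 14.3% in GFP muscle. The fed Crtc2 libraries were below the fed GFP libraries, as in 3.84% of genes. Pde4d rose by 3.199 ± 0.25 in Crtc2 muscle (adjusted p = 6.40e-08) and by 2.07 ± 0.24 in GFP muscle (adjusted p = 1.06e-05), a log2 difference of 1.13 ± 0.33 (adjusted p = 0.516). Adcy7, which makes cyclic AMP, had the opposite pattern, at 0.259, 0 and 0.676 CPM in ADF Crtc2 muscle and 4.57, 11.3 and 6.81 CPM in fed Crtc2 muscle. In GFP muscle it had 13.8, 8.58 and 15.6 CPM under ADF and 12.5, 11.8 and 9.097 CPM in the fed group. It fell in Crtc2 muscle (adjusted p = 0.00144) and did not pass in GFP muscle (adjusted p = 0.946), with an interaction adjusted p of 0.315. Ppargc1a, the coactivator of mitochondrial biogenesis, had an interaction of 0.046 ± 0.53 and Sik1, a kinase that feeds back on CRTC proteins, of -0.14 ± 0.56, each within 1 standard error of 0. Nr4a1, another receptor of the Nr4a family, had -0.58 ± 0.34 and did not pass (adjusted p = 0.705).

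Because Crtc2 acts through the CRE, the 250 bases upstream of the start site were searched for its palindrome TGACGTCA, which reads the same on both strands, in the mouse RefSeq promoter table (GRCm38.p6). It was present for 317 of 11091 tested genes with a window (2.86%), and for 2 of the 21 CREB and CRTC targets with a window (9.52%), Btg2 and Dusp1. A partial form of the CRE, shorter than the palindrome, was present for 3229 of the 11091 genes (29.1%). It was present for 15 of the 21 targets (71.4%), so most targets without the palindrome are not without any such element. The relation of this partial form to the interaction was not tested. The 317 genes had a median interaction of -0.02 against -0.09 for all 11091, with 14 positive and 11 negative at an unadjusted p under 0.05. Of all 16007 genes tested, with or without a window, 7.75% had that p, 2.69% positive and 5.06% negative. Shown are the elements of those 2 targets and of the 4 genes that, among the 317, had the smallest unadjusted p, each with up to 16 bases on either side, in the direction of transcription, with the CRE in capitals; these 4 were chosen after their values were seen. A match describes letters in a window and not a bound site.
Btg2, chr1:134079298-134079337, minus strand: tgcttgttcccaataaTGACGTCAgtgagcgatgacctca
Dusp1, chr17:26508592-26508631, minus strand: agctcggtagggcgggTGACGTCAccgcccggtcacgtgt
Pet100, chr8:3621442-3621481, plus strand: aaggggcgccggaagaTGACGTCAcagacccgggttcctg
Mlf1, chr3:67374027-67374066, plus strand: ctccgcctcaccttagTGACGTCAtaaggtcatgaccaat
Irf2bpl, chr12:86884821-86884860, minus strand: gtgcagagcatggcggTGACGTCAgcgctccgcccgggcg
Cycs, chr6:50566715-50566754, minus strand: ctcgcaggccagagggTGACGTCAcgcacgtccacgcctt

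Of these genes, Pet100, an assembly factor of cytochrome oxidase, had an interaction of 1.39 ± 0.40, and Mlf1, myeloid leukaemia factor 1, of 0.87 ± 0.27. Irf2bpl, a zinc finger protein of the nucleus, had -1.72 ± 0.53. Cycs, cytochrome c, the electron carrier of the respiratory chain, had 0.80 ± 0.25 (adjusted p = 0.516). Dusp1, a phosphatase of MAP kinases, had 0.032 ± 0.36, and Btg2, an antiproliferative gene, had -0.27 ± 0.41. Dusp1 and Btg2 were within 1 standard error of 0, and the elements stand before genes of either sign.

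On the positive side, the subunits of the respiratory chain formed the most even group among the lists examined. All 37 subunits of complex I, which takes electrons from NADH, had a positive interaction, with a median of 0.43, and 11 had an unadjusted p under 0.05. Of the 36 subunits of complexes III and IV and ATP synthase, 35 were positive, with a median of 0.44 and 12 at that p. The fasting responses that passed were balanced differently. In GFP muscle 20 of the 37 complex I genes fell and 0 rose, while in Crtc2 muscle 3 fell and 4 rose. For the other complexes 19 fell and 1 rose in GFP muscle, and 1 fell and 5 rose in Crtc2 muscle. Ndufc1, a small complex I subunit, read 259.9, 282 and 309 CPM in ADF Crtc2 muscle and 336, 374 and 324 CPM in fed Crtc2 muscle. The GFP libraries had 176, 184 and 165 CPM under ADF and 294, 378 and 360.0 CPM when fed. It fell in GFP muscle by 0.97 ± 0.16 (adjusted p = 0.000644), the ADF GFP libraries lying below the other 9, and its response of -0.28 ± 0.16 in Crtc2 muscle did not pass (adjusted p = 0.303), for an interaction of 0.69 ± 0.23. Cox7b, a subunit of cytochrome oxidase, fell in GFP muscle (-0.85 ± 0.18, adjusted p = 0.00466), with a response of -0.055 ± 0.18 in Crtc2 muscle and an interaction of 0.79 ± 0.25. Cycs stood at 149, 189.5 and 192 CPM in ADF Crtc2 muscle and 134, 119.9 and 117 CPM in fed Crtc2 muscle. With GFP the values were 124, 107 and 102 CPM under ADF and 129, 133 and 143 CPM in fed muscle, highest under ADF with Crtc2.

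Both medians kept their sign in the 22 alternative settings, between 0.26 and 0.56 for complex I and between 0.27 and 0.57 for the others. The counts moved more. With library totals as scaling, which shifts the median of all genes to -0.27, 2 complex I genes had an unadjusted p under 0.05, and 18 rather than 3 fell in Crtc2 muscle. Without the ADF GFP replicate 3, which had the lowest complex I level, 4 genes had that p and 7 rather than 20 fell in GFP muscle. Without the ADF GFP replicate 1 the first of these counts was 20. For the other complexes, library totals gave 6 genes at that p and 14 rather than 1 that fell in Crtc2 muscle; 6 had that p without the ADF GFP replicate 3, where 10 rather than 19 fell in GFP muscle, and 24 without the ADF GFP replicate 1. Summed over the complex I genes, the level was 14960.0, 14830.0 and 16260.0 CPM in ADF Crtc2 muscle and 17400.0, 14880.0 and 15090.0 CPM in fed Crtc2 muscle. The values in ADF GFP muscle were 12940.0, 11170.0 and 9082 CPM, and in fed GFP muscle 14900.0, 15710.0 and 15420.0 CPM, and the ADF GFP libraries did not overlap with the rest. Summed levels of the other complexes did overlap. The ADF GFP replicate 1 had 28190 CPM, above the fed Crtc2 replicates 2 and 3 (27860 and 26080 CPM). It was also above the fed GFP replicate 1 (27150 CPM). Genes of these lists are short, with a median exon length of 1569 bases for complex I against 4559.5 bases for genes of at least 10 CPM, and across 7788 genes the interaction had a Spearman correlation of -0.159 with exon length. They are also highly expressed, where positive values prevail. The part of length and level in the result was not tested.

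**Figure D3:**
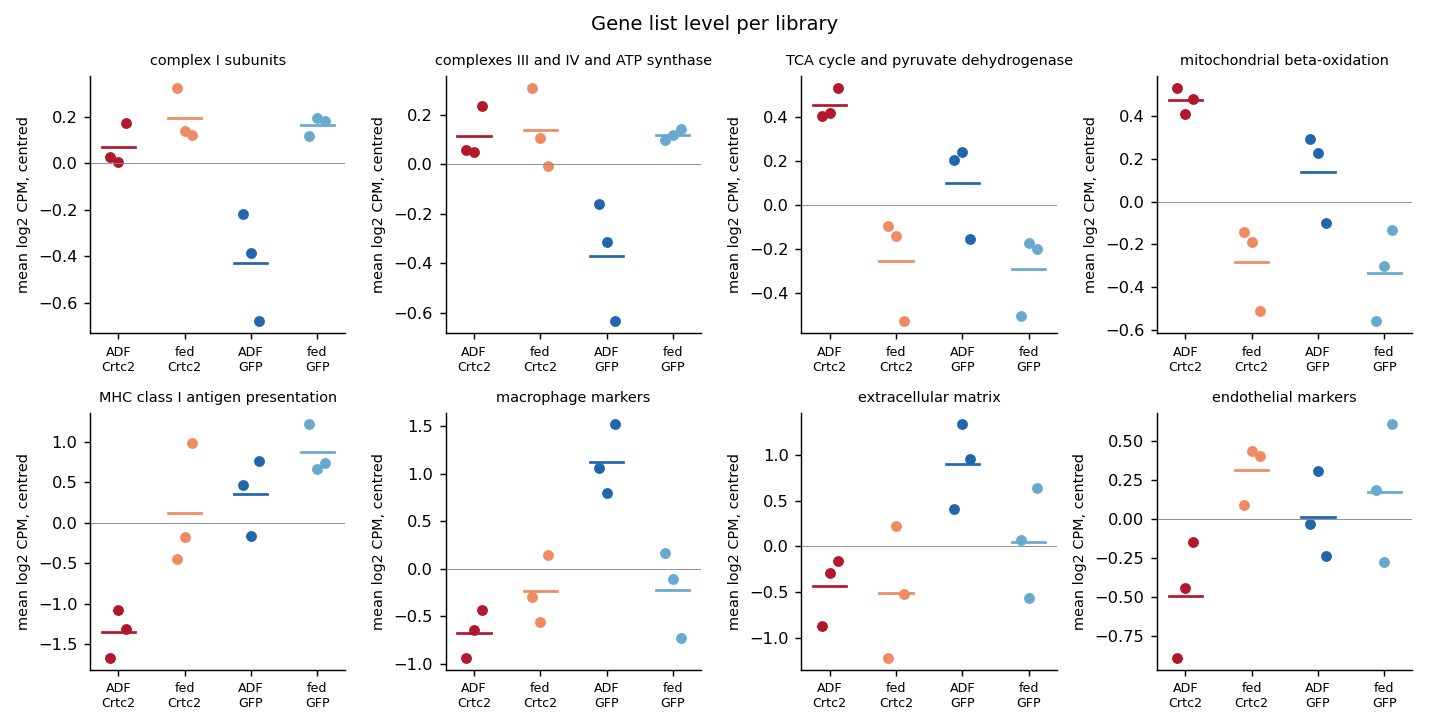
Level of 8 gene lists in each library (points, 3 per group; lines, group means), as mean log2 CPM over the members minus its mean over the 12 libraries, for ADF Crtc2, fed Crtc2, ADF GFP and fed GFP muscle. Complex I and the other respiratory complexes are low in the 3 ADF GFP libraries, MHC class I is low in the 3 ADF Crtc2 libraries, and macrophage markers are high in the 3 ADF GFP libraries.

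The pathways that feed the respiratory chain had members that rose with fasting in both vectors. Of 22 genes of the TCA cycle and pyruvate dehydrogenase, 12 rose in Crtc2 muscle and 6 in GFP muscle, 20 had a positive interaction, the median was 0.34, and 5 had an unadjusted p under 0.05 (1 without the ADF GFP replicate 3). With library totals as scaling 6 rather than 12 rose in Crtc2 muscle, and without the ADF GFP replicate 2 there were 2 rather than 6 in GFP muscle. Without the fed Crtc2 replicate 3 the TCA list had 7 in each vector, and without the fed GFP replicate 1 it had 12 in Crtc2 muscle and 2 in GFP muscle. Without the ADF Crtc2 replicate 3 it had 7 in Crtc2 muscle and 5 in GFP muscle, and without the ADF GFP replicate 1 11 and 3. Idh3b, a subunit of isocitrate dehydrogenase, had 1004 ± 49.5 CPM in ADF Crtc2 muscle and 579 ± 51.1 CPM in fed Crtc2 muscle. ADF GFP muscle had 689 ± 88.4 CPM and fed GFP muscle 657 ± 96.3 CPM (SD, n = 3 each). It rose in Crtc2 muscle (0.79 ± 0.16, adjusted p = 0.00254) and was 0.068 ± 0.16 in GFP muscle (adjusted p = 0.904), for an interaction of 0.73 ± 0.23. Mitochondrial beta-oxidation had 16 of 18 positive members, a median of 0.31 and 3 at an unadjusted p under 0.05 (Acadvl, Eci1 and Etfdh; 1 gene without the ADF GFP replicate 3 and 6 without the fed GFP replicate 1), with 10 genes rising in Crtc2 muscle and 7 in GFP muscle (6 and 3 with library totals, 8 and 7 without the fed Crtc2 replicate 3, 12 and 3 without the fed GFP replicate 1, 9 and 3 without the ADF GFP replicate 2, 10 and 4 without the ADF GFP replicate 1). Acadvl, which starts the oxidation of very long fatty acids, read 447, 386 and 359 CPM in ADF Crtc2 muscle and 80.6, 100.5 and 70.7 CPM in fed Crtc2 muscle. Among GFP libraries, ADF gave 364, 265 and 240.5 CPM and feeding 73.1, 141 and 129 CPM. It rose in both vectors, by 2.24 ± 0.24 in Crtc2 muscle and by 1.34 ± 0.23 in GFP muscle, a difference of 0.90 ± 0.32 (adjusted p = 0.537). Fabp3, a carrier of fatty acids in muscle, rose in Crtc2 muscle (1.03 ± 0.21, adjusted p = 0.0019) and had 0.28 ± 0.20 in GFP muscle, with an interaction of 0.76 ± 0.29. Catabolism of branched-chain amino acids had 15 of 20 positive members, a median of 0.38 and 2 at an unadjusted p under 0.05, with 0 at that p with library totals as scaling and 5 without the ADF GFP replicate 1. The median levels of the TCA, beta-oxidation and branched-chain lists were 474.3, 163.4 and 58.59 CPM. Of all genes over 100 CPM, 72.3% were positive, and 10.9% were positive at that p. From 30 to 100 CPM the shares were 55.6% and 5.52%. The part of level in these 3 lists was not tested.

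Genes named by smallest p on the positive side included several whose fasting responses ran in opposite directions. Stard10, a phospholipid transfer protein (chromosome 7, 101317086 to 101346626 on GRCm38), read 61.2, 69.6 and 61.98 CPM in ADF Crtc2 muscle and 36.2, 34.97 and 41.7 CPM in fed Crtc2 muscle. For GFP, the ADF libraries had 35.4, 31.8 and 25.98 CPM and the fed libraries 53.3, 54.8 and 57.8 CPM. The 4 groups did not overlap along either factor: ADF was above fed in Crtc2 muscle and below it in GFP muscle, and Crtc2 was above GFP under ADF and below it in fed muscle. It rose by 0.77 ± 0.23 in Crtc2 muscle (adjusted p = 0.0287) and fell by 0.83 ± 0.23 in GFP muscle (adjusted p = 0.026), and was higher with Crtc2 under ADF (adjusted p = 0.0298). Its interaction was 1.604 ± 0.32 (adjusted p = 0.174), between 1.44 and 1.71 over the 22 alternatives. Among 16007 genes, 17 had this fully crossed pattern with Crtc2 upward (0.106%) and 22 with Crtc2 downward (0.137%).

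Thoc7, part of the complex that exports messenger RNA from the nucleus, was crossed in the same way, at 60.9, 76.9 and 62.3 CPM in ADF Crtc2 muscle and 33.97, 47.1 and 55.6 CPM in fed Crtc2 muscle. GFP muscle had 47.3, 51.9 and 44.8 CPM under ADF and 77.99, 79.8 and 71.4 CPM when fed. Its interaction was 1.22 ± 0.32 (adjusted p = 0.458), and neither response to ADF passed. Tefm, the elongation factor of mitochondrial transcription, was crossed as well, at 31.9, 33.7 and 32.3 CPM in ADF Crtc2 muscle and 16.3, 18.9 and 16.2 CPM in fed Crtc2 muscle. In GFP muscle it had 20.3, 15.8 and 13.7 CPM under ADF and 25.2, 26.9 and 25.1 CPM in the fed group, with 1.56 ± 0.43 (adjusted p = 0.516). Other positive genes rose with ADF in Crtc2 muscle, where the response in GFP muscle did not pass. Chchd3, which shapes the cristae of mitochondria, read 663, 558 and 575 CPM in ADF Crtc2 muscle and 354, 335 and 337 CPM in fed Crtc2 muscle. The GFP libraries had 409, 343 and 315 CPM under ADF and 301, 450.2 and 382 CPM when fed. The ADF Crtc2 libraries were above the other 9, the rise in Crtc2 muscle was 0.81 ± 0.17 (adjusted p = 0.00354), and the interaction was 0.90 ± 0.25 (adjusted p = 0.516). Dnajc21, a chaperone of ribosome assembly, rose by 1.15 ± 0.22 in Crtc2 muscle (adjusted p = 0.00105), and Lrrc39, a protein of the M-band, by 1.08 ± 0.19 (adjusted p = 0.000732), with interactions of 1.26 ± 0.30 and 1.101 ± 0.27. Tango2, whose loss causes muscle breakdown in humans, had 103 ± 26.1 CPM in ADF Crtc2 muscle and 31.6 ± 3.301 CPM in fed Crtc2 muscle. With GFP the values were 58.6 ± 8.38 CPM under ADF and 48.6 ± 16.1 CPM in fed muscle (SD, n = 3 each). It rose in Crtc2 muscle (adjusted p = 0.000165), with an interaction of 1.44 ± 0.37. Acyp2, a muscle acylphosphatase, fell in GFP muscle (-0.59 ± 0.17, adjusted p = 0.0374), had 0.33 ± 0.17 in Crtc2 muscle and was higher with Crtc2 under ADF (adjusted p = 0.0152), with an interaction of 0.92 ± 0.24. Pde6d, which carries prenylated proteins, had 1.39 ± 0.37 and Aldoart1, a near copy of the aldolase gene Aldoa whose reads may be shared with it, 0.88 ± 0.24. Gapdh, the glycolytic enzyme, which also has many near copies in the genome, had 0.85 ± 0.25.

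**Figure D4:**
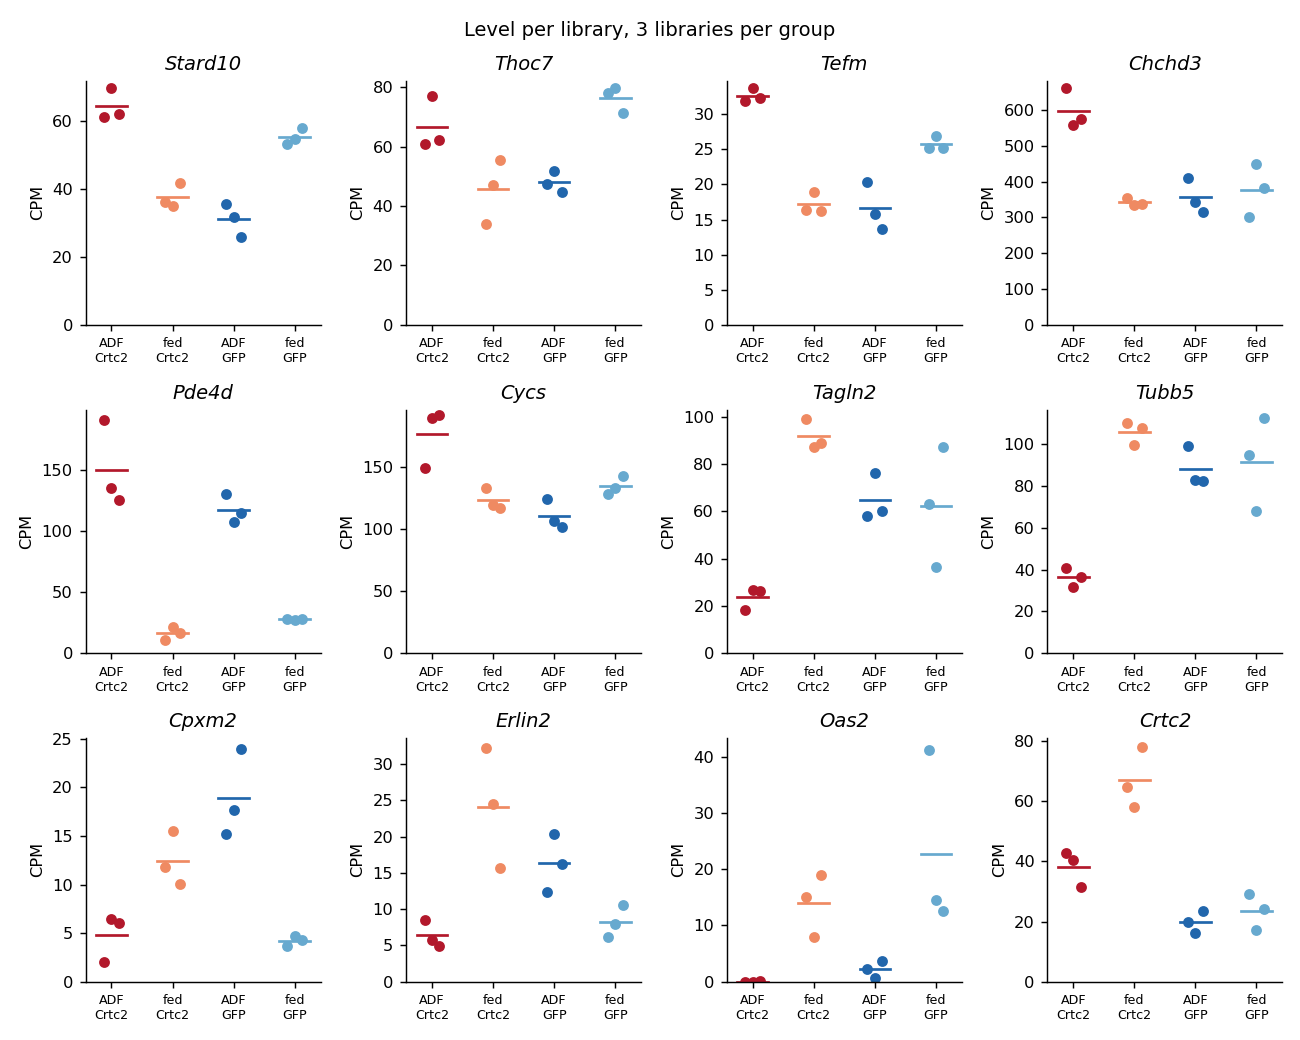
Level in each library (CPM, linear axes from 0; points, 3 libraries per group; lines, group means) of 12 genes in ADF Crtc2, fed Crtc2, ADF GFP and fed GFP muscle. In Stard10, Thoc7 and Tefm the ADF groups cross the fed groups in opposite directions with the vectors, in Tagln2 and Tubb5 the ADF Crtc2 libraries stand below the other 9, and in Crtc2 the 6 libraries of Crtc2 muscle stand above those of GFP muscle.

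Among the negative genes of smallest p were Tagln2, Tubb5, Irs2, Cd3g and Mov10. Tagln2, an actin-binding protein of many non-muscle cells (chromosome 1, 172500047 to 172507380), read 18.3, 26.7 and 26.3 CPM in ADF Crtc2 muscle and 99.03, 87.4 and 88.8 CPM in fed Crtc2 muscle. The values in ADF GFP muscle were 57.8, 76.3 and 60.1 CPM, and in fed GFP muscle 62.95, 36.5 and 87.2 CPM. The ADF Crtc2 libraries lay below the other 9, in a gene named for its small p, and the share of all genes so separated is not given. It fell by 1.95 ± 0.28 in Crtc2 muscle (adjusted p = 6.40e-05) and was 0.058 ± 0.27 in GFP muscle (adjusted p = 0.954), for an interaction of -2.004 ± 0.38. Without the fed GFP replicate 3, the highest fed GFP library, this interaction passed in edgeR. Tubb5, a beta tubulin (chromosome 17, 35833921 to 35838306), read 40.9, 31.8 and 36.4 CPM in ADF Crtc2 muscle and 110.0, 99.5 and 108 CPM in fed Crtc2 muscle. ADF GFP muscle had 98.9, 82.7 and 82.3 CPM and fed GFP muscle 94.6, 67.8 and 113 CPM. The ADF Crtc2 libraries again lay below all others, with an interaction of -1.48 ± 0.30 (adjusted p = 0.174). Crip1, a small LIM domain protein, fell in Crtc2 muscle (adjusted p = 0.000239) with 26.6 ± 8.505 CPM in ADF Crtc2 muscle and 83.4 ± 24.6 CPM in fed Crtc2 muscle. Among GFP libraries, ADF gave 74.3 ± 12.9 CPM and feeding 73.7 ± 4.101 CPM (SD, n = 3 each). The interaction of Crip1 was -1.66 ± 0.37. In a list of 27 non-muscle cytoskeleton genes and galectins that was drawn up after these values had been seen, 26 were negative, with 14 at an unadjusted p under 0.05 (10 to 19 over the alternatives); 20 fell in Crtc2 muscle and 3 in GFP muscle (0 without the ADF GFP replicate 2). The median level of that list was 71.3 CPM, and of all genes from 30 to 100 CPM 4.06% were negative at that p. Actg1, Vim, Lgals3 and Krt18 had interactions of -1.54 ± 0.36, -1.07 ± 0.32, -1.801 ± 0.45 and -2.27 ± 0.58. Summed, the list stood at 1621, 1909 and 1656 CPM in ADF Crtc2 muscle and 3747, 4047 and 3974 CPM in fed Crtc2 muscle. For GFP, the ADF libraries had 3040.0, 2897 and 3429 CPM and the fed libraries 4764, 3308 and 4729 CPM, with no overlap of the ADF Crtc2 libraries and the rest.

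Cpxm2 and Erlin2 were crossed, with Crtc2 downward. Cpxm2, a secreted carboxypeptidase-like protein (chromosome 7, 132032687 to 132154739), read 2.07, 6.48 and 6.01 CPM in ADF Crtc2 muscle and 11.8, 15.5 and 10.1 CPM in fed Crtc2 muscle. GFP muscle had 15.2, 17.7 and 23.995 CPM under ADF and 3.66, 4.69 and 4.28 CPM when fed. It rose in GFP muscle (2.17 ± 0.54, adjusted p = 0.0149), had -1.36 ± 0.53 in Crtc2 muscle (adjusted p = 0.109), and its interaction was -3.53 ± 0.75 (adjusted p = 0.231). Erlin2, a protein of the endoplasmic reticulum that acts in the breakdown of other proteins, read 8.51, 5.73 and 4.98 CPM in ADF Crtc2 muscle and 32.3, 24.5 and 15.7 CPM in fed Crtc2 muscle. In GFP muscle it had 12.3, 20.4 and 16.3 CPM under ADF and 6.22, 7.92 and 10.6 CPM in the fed group. It fell in Crtc2 muscle (-1.92 ± 0.45, adjusted p = 0.00655), was 0.99 ± 0.44 in GFP muscle and had an interaction of -2.902 ± 0.62 (adjusted p = 0.231). Sh3pxd2b, an adaptor of podosomes, fell in Crtc2 muscle (-2.502 ± 0.61, adjusted p = 0.00894), with 1.33 ± 0.58 in GFP muscle and an interaction of -3.83 ± 0.84. Rrad, a small GTPase of muscle that rises after denervation, had 3.19 ± 1.796 CPM in ADF Crtc2 muscle and 27.7 ± 16.1 CPM in fed Crtc2 muscle. The GFP libraries had 16.1 ± 2.14 CPM under ADF and 15.7 ± 7.51 CPM when fed (SD, n = 3 each). The interaction of Rrad was -3.15 ± 0.73 (adjusted p = 0.315). Sln, sarcolipin, an inhibitor of the calcium pump, fell in both vectors, by 2.48 ± 0.29 in Crtc2 muscle (adjusted p = 6.66e-06) and by 0.93 ± 0.28 in GFP muscle (adjusted p = 0.0424), a difference of -1.55 ± 0.39. Of 21 genes of regeneration and denervation, 18 were negative, with a median of -1.02 and 4 at an unadjusted p under 0.05 (1 without the ADF GFP replicate 3, 7 with library totals). The median level of that list was 15.75 CPM, and of all genes from 10 to 30 CPM 4.66% were negative at that p. Chrna1, a subunit of the acetylcholine receptor, fell in Crtc2 muscle (-1.26 ± 0.39, adjusted p = 0.0426) and had an interaction of -1.55 ± 0.54.

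Summed levels of MHC class I and of interferon response genes were lower in the 3 ADF Crtc2 libraries than in the other 9, and macrophage genes were highest in ADF GFP muscle. All 16 genes of MHC class I antigen presentation, which displays peptides to T cells, were negative, with a median of -0.95 and 6 at an unadjusted p under 0.05. In Crtc2 muscle 9 fell, against 1 in GFP muscle. The 6 became 3 without the fed Crtc2 replicate 3, and the 9 became 5 in limma voom and 14 without the filter on low counts. B2m, the light chain of MHC class I, read 133, 169.8 and 147 CPM in ADF Crtc2 muscle and 269, 348 and 418 CPM in fed Crtc2 muscle. With GFP the values were 534, 464 and 655 CPM under ADF and 894, 592 and 688 CPM in fed muscle. The ADF Crtc2 libraries were below the other 9, and the fed Crtc2 libraries were below all GFP libraries of either diet. How many of all genes separate in this way is not given. For Crtc2 against GFP the median of the list was -1.66 under ADF and -0.83 in fed muscle, where 0 members passed. The fall of B2m in Crtc2 muscle was 1.202 ± 0.20 (adjusted p = 0.000352), the response in GFP muscle was -0.40 ± 0.20 (adjusted p = 0.274), and the interaction was -0.81 ± 0.28 (adjusted p = 0.537). Of 32 interferon response genes 30 were negative, with a median of -1.02 and 5 at that p, and 11 fell in Crtc2 muscle against 1 in GFP muscle. Without the ADF Crtc2 replicate 2 the 5 became 15, without the ADF Crtc2 replicate 1 the 11 became 5, and without the filter on low counts 19 fell. The median levels of the MHC class I and interferon lists were 32.85 and 14.63 CPM. Of all genes, 4.06% from 30 to 100 CPM and 4.66% from 10 to 30 CPM were negative at that p. Oas2, an antiviral enzyme that senses double-stranded RNA, was at 0, 0 and 0.0711 CPM in ADF Crtc2 muscle and 15.1, 8.04 and 18.95 CPM in fed Crtc2 muscle. The values in ADF GFP muscle were 2.27, 0.747 and 3.72 CPM, and in fed GFP muscle 41.3, 14.5 and 12.5 CPM. It fell in both vectors (adjusted p = 7.60e-06 in Crtc2 muscle and 0.00612 in GFP muscle), and the ADF Crtc2 libraries were all but empty. Gbp3, a guanylate-binding protein, fell in Crtc2 muscle (-2.25 ± 0.37, adjusted p = 0.000342) and had -0.089 ± 0.36 in GFP muscle, with an interaction of -2.16 ± 0.51.

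Macrophage markers divided differently. Of 16, 15 were negative, with a median of -1.31 and 7 at an unadjusted p under 0.05 (3 without the ADF Crtc2 replicate 1), while 0 fell in Crtc2 muscle and 1 rose in GFP muscle. Ctss, a lysosomal protease of antigen-presenting cells, read 32.2, 28.8 and 25.2 CPM in ADF Crtc2 muscle and 45.4, 47.4 and 37.4 CPM in fed Crtc2 muscle. ADF GFP muscle had 102, 98.02 and 144 CPM and fed GFP muscle 17.6, 67.9 and 68.9 CPM. The ADF GFP libraries were above the other 9 and the ADF Crtc2 libraries were below the fed Crtc2 libraries. Its interaction was -1.75 ± 0.50 (adjusted p = 0.516), and it was lower with Crtc2 under ADF (adjusted p = 0.0123). Laptm5, a lysosomal membrane protein of blood cells, rose in GFP muscle (1.16 ± 0.35, adjusted p = 0.0491), had -1.04 ± 0.35 in Crtc2 muscle and an interaction of -2.202 ± 0.50. Summed over the macrophage list, the level was 243, 335 and 272 CPM in ADF Crtc2 muscle and 327, 300.5 and 408 CPM in fed Crtc2 muscle. Among GFP libraries, ADF gave 783, 699 and 1119 CPM and feeding 491, 601 and 518 CPM. All 9 genes of MHC class II were negative, 1 of them at an unadjusted p under 0.05. The median levels of the macrophage and MHC class II lists were 17.07 and 13.14 CPM. Of all genes from 10 to 30 CPM, 4.66% were negative at that p.

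Lymphocyte genes were sparse. Of 19 T and NK cell markers 18 were negative and 7 had an unadjusted p under 0.05 (3 without the fed Crtc2 replicate 3), but 7 of the 19 had a group without counts and their fitted fold changes are not sizes. The median level of the list was 3.923 CPM, and of all genes from 3 to 10 CPM 3.46% were negative at that p. The sum of the 19 was 17.1, 20.5 and 18.03 CPM in ADF Crtc2 muscle and 28.2, 49.6 and 196 CPM in fed Crtc2 muscle. For GFP, the ADF libraries had 164, 79.5 and 170.5 CPM and the fed libraries 264, 99.2 and 141 CPM, low in the 3 ADF Crtc2 libraries. Cd3g, a chain of the T cell receptor complex, had 0 in all 3 libraries in ADF Crtc2 muscle and 3.25, 2.63 and 12.8 CPM in fed Crtc2 muscle. GFP muscle had 8.096, 2.39 and 4.099 CPM under ADF and 5.47, 4.999 and 3.34 CPM when fed. Against the floor of 3 counts per library, fed Crtc2 muscle was at least 52.7-fold and ADF GFP muscle at least 41.1-fold higher than ADF Crtc2 muscle. These bounds cover counting error only and may be too high, as low counts may stand for fewer fragments. B and plasma cell markers gave no steady direction, with 6 of 11 negative and a median that changed sign in 7 of the 22 alternatives; their sum varied between 31.8 and 168.8 CPM in Crtc2 libraries and between 278 and 7207 CPM in GFP libraries. In bulk tissue, fewer cells of a type and less RNA per cell cannot be told apart.

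Matrix and vessel genes were negative too. Of 25 extracellular matrix genes 23 were negative, with a median of -0.99 and 4 at an unadjusted p under 0.05 (Col4a2, Col6a1, Bgn and Mmp2), while 0 passed with ADF in Crtc2 muscle and 5 rose in GFP muscle. Without the filter on low counts the 4 became 18 and the 5 became 15, and with library totals 2 rose in GFP muscle. Summed matrix levels were 1764, 2438 and 2789 CPM in ADF Crtc2 muscle and 1787, 3865 and 2143 CPM in fed Crtc2 muscle. In GFP muscle it had 4019, 7547 and 5753 CPM under ADF and 3205, 1932 and 4865 CPM in the fed group, and ADF GFP overlapped with fed GFP muscle. All 12 endothelial markers were negative, with a median of -0.49 and 2 at that p, Flt1 (-1.11 ± 0.42), a receptor of vascular endothelial growth factor, and Eng (-0.96 ± 0.37). The 2 became 1 without the fed Crtc2 replicate 3 and 6 in voom with library weights. All 11 fibroblast and fibro-adipogenic markers were negative, with a median of -0.46 and 0 at that p (4 without the fed Crtc2 replicate 1). The median levels of the matrix, endothelial and fibroblast lists were 81.85, 44.14 and 42.47 CPM. Of all genes from 30 to 100 CPM, 55.6% were positive whatever their p, and 4.06% were negative at that p. The genes of fast fibres, the identity of this muscle, had a median of 0.15, with 11 of 12 positive, and their summed level was between 126800 and 216300 CPM in the 12 libraries. That median turned negative in 1 of the 22 alternatives. The negative member, Myh2, had -1.097 and was the only one at an unadjusted p under 0.05. Of all genes over 100 CPM, 72.3% were positive. Slow fibre genes had 5 of 11 positive, a median of -0.06 and 1 negative gene at that p. In that list 2 genes passed as lower with Crtc2 under ADF. Adipocyte markers, with 7 of 9 positive, changed sign in 7 alternatives. The part of these cell type markers in the other negative genes was not tested.

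**Figure D5:**
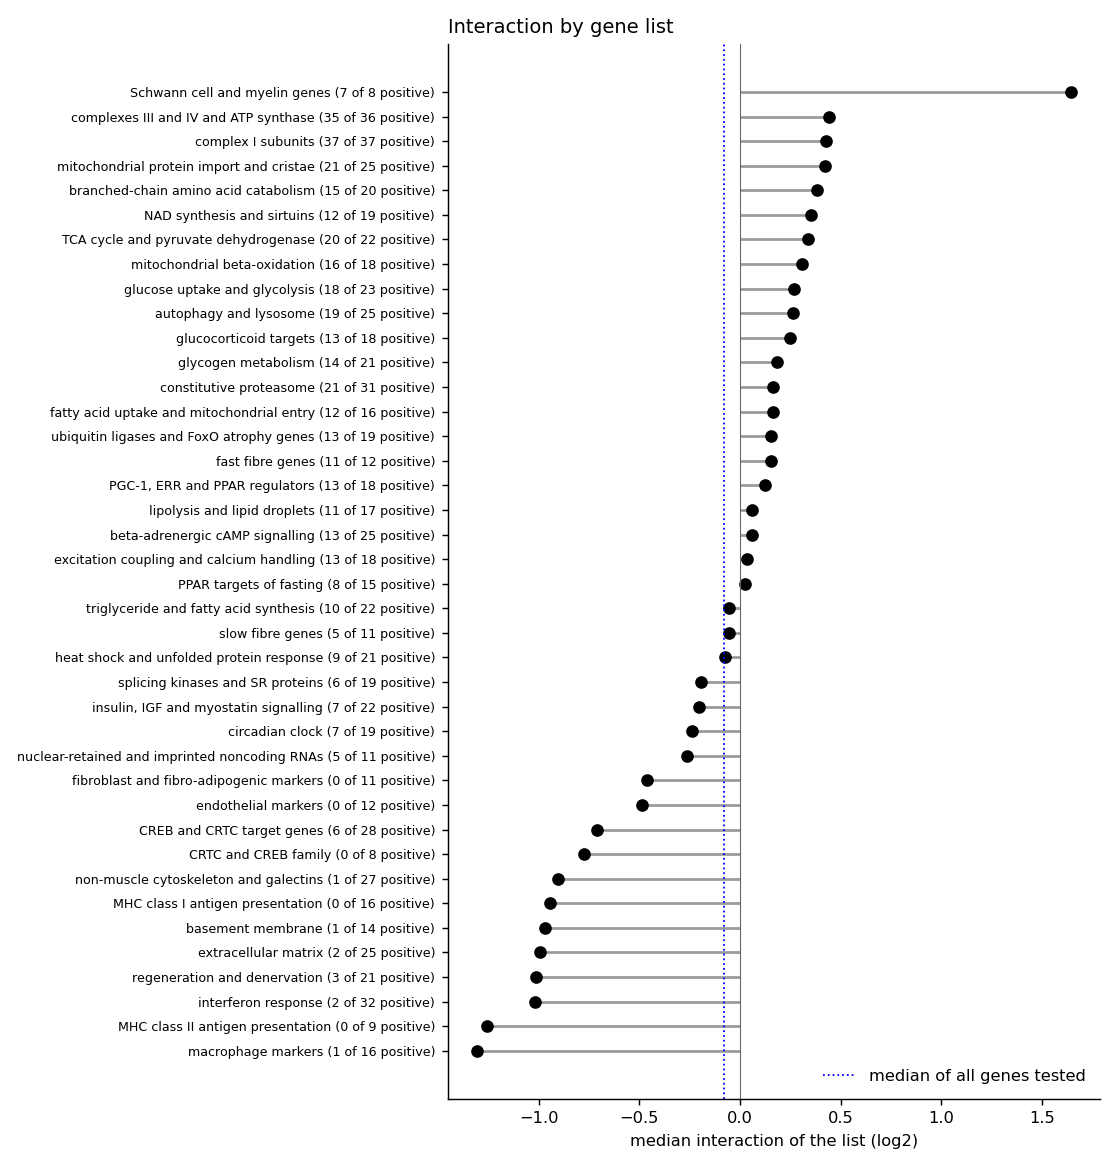
Median diet by vector interaction (log2) of each gene list with at least 8 tested members and a median level of at least 10 CPM, with the number of positive members; the blue dotted line is the median of all genes tested, -0.08. Respiratory chain and other mitochondrial lists lie at 0.31 to 0.44, and immune, matrix and cytoskeleton lists at -0.90 to -1.31. Lists of lipid, glycogen and glucose metabolism, atrophy and autophagy lie between, at -0.05 to 0.27. The Schwann cell, cytoskeleton, basement membrane and mitochondrial import lists were drawn up after the values had been seen.

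From a set of genes named whatever their result, several well-known fasting genes had interactions within about 1 standard error of 0, though the errors leave room for differences. Pdk4, the kinase that shuts pyruvate dehydrogenase, rose by 3.196 ± 0.50 in Crtc2 muscle and by 3.31 ± 0.51 in GFP muscle, with an interaction of -0.11 ± 0.65. Fbxo32, the atrogin-1 ubiquitin ligase, rose by 2.96 ± 0.28 in Crtc2 muscle and by 2.803 ± 0.27 in GFP muscle (0.15 ± 0.36 for the interaction), and Trim63, the ligase MuRF1, had 0.38 ± 0.46. Pnpla2, the triglyceride lipase ATGL, had -0.27 ± 0.27, and Ucp3, a mitochondrial carrier that rises with fatty acid supply, 0.29 ± 0.42. Other members of that set lay further from 0 and did not pass: Fos at -1.75, Dgat2 at 1.19, Nlrc5 at -1.06 and Angptl4 at -0.77. Cpt1b, Lpl, Hk2, Sdha, Per1, Myh4, Myh7 and Neat1 lay between Id1 at -0.59 and Bckdha at 0.56. The remaining members are given above. In the list of atrophy ligases and other FoxO targets, 9 of 19 rose in Crtc2 muscle and 8 of 19 in GFP muscle. The 8 became 3 and 4 without the fed GFP replicates 1 and 3, and 4 and 5 without the ADF GFP replicates 1 and 3. In that list 0 had an interaction at an unadjusted p under 0.05. Of 15 fasting targets of PPAR receptors 7 rose in each vector (7 in Crtc2 muscle and 4 in GFP muscle without the ADF GFP replicate 2), and 2 had such a p, Fabp3 on the positive side and Ucp2, another mitochondrial carrier, on the negative side. Ucp2 was at 24.8, 49.8 and 38.05 CPM in ADF Crtc2 muscle and 18.3, 21.1 and 29.4 CPM in fed Crtc2 muscle. The GFP libraries had 115, 85.1 and 139.9 CPM under ADF and 42.05, 19.1 and 20.5 CPM when fed. It rose in GFP muscle (2.06 ± 0.33, adjusted p = 0.000367), did not pass in Crtc2 muscle (0.71 ± 0.32, adjusted p = 0.174) and had an interaction of -1.35 ± 0.45. The clock repressor Nr1d1 likewise rose in GFP muscle (1.27 ± 0.29, adjusted p = 0.00768) and had 0.17 ± 0.28 in Crtc2 muscle, with an interaction of -1.101 ± 0.40.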

How the data were processed

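The deposited file holds raw read counts per Ensembl gene, not normalized, for 12 libraries (22607 genes). Per the submitters' processing notes, the tools were DESeq2 1.18.1, Subread 1.6.1 with featureCounts, SAMtools 1.7 and HISAT2 2.0.5, and the builds GRCm38 and mm10; tool roles, the annotation release and strand setting are not given in the sources used here. Per the labels' protocols, library kits of NEBNext (Ultra II directional) and of Illumina (TruSeq Stranded mRNA) are named, without assignment to libraries. A preparation difference that followed a group could not be told apart from it.

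Total counts were 24232450 to 34610417 per library, and 68.9 to 74.7% of counts from 2 to 21 were even, so low counts may stand for fewer fragments. Floors of 3 counts cover counting error only. No column belonged to an unknown sample, and mitochondrially encoded genes were not analysed here.

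All 12 libraries were fitted together in edgeR 4.0.16 (R 4.3.3) with TMM scaling, filterByExpr over 4 groups (16007 genes), robust quasi-likelihood and 4 group means as terms; p-values were adjusted by Benjamini-Hochberg over all genes tested, with a threshold of 0.05. Adjusted p-values in the text come from this fit. Errors of log2 values are standard errors (the log2 value divided by the root of F), and levels are CPM with TMM-scaled library sizes. The smallest two-sided exact p of 3 against 3 libraries is 0.1. Alternatives were DESeq2 1.42.0, limma 3.58.1 voom, other scalings and filters, replicate blocks and leaving out each library. The scripts were tested on simulated data.

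Gene positions come from GENCODE release M21 on GRCm38 (99.9% of genes found). Named genes were Crtc2 and its family, the 10 smallest unadjusted p each way at 5 CPM or more, up to 4 members of each list by p, genes passing in 1 vector or with opposite fasting responses, and a set of fasting genes whatever their result. The members, lists and this rule were chosen with earlier results of these data known, and 5 of the 46 lists were drawn up after the values had been seen. Pet100, Mlf1, Irf2bpl, Btg2, Dusp1, Actg1, Vim, Lgals3, Krt18, Flt1, Eng and other list members outside the rule were named after their values were seen.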

Additional observations from a re-analysis of the deposited data

How the results depend on the processing

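The interaction called 0 genes in edgeR as reported and under DESeq2 size factors, library totals, a filter at a mean of 10 CPM, limma voom with and without library weights and non-robust spread; it called 67 without the filter on low counts and 111 in DESeq2, and 0 to 3 when 1 library was left out. Genes at an unadjusted p under 0.05 numbered 657 with the filter at 10 CPM (52.2% positive, against 34.7% as reported), 1283 with library totals (16.1% positive) and 1023 to 1640 when 1 library was left out. Crtc2 against GFP under ADF gave 116 genes as reported, 385 without the filter, 556 in DESeq2, 68 in voom, 587 in voom with library weights and 25 to 164 when 1 library was left out. In fed muscle it gave 0 as reported, 58 without the filter, 64 in DESeq2, 3 without robust estimation, 6 with the replicate block within diet and 0 to 18 when 1 library was left out. When 1 library was left out, ADF against fed ranged from 1129 to 1940 genes in Crtc2 muscle and from 677 to 1230 in GFP muscle, and the interaction of Crtc2 from -0.75 to -0.38; under the other alternatives ADF against fed gave up to 2505 genes in Crtc2 muscle and 1635 in GFP muscle, both in DESeq2. Library totals as scaling moved the median of all genes from -0.08 to -0.27. The cause of these movements was not tested.

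Same-numbered libraries correlated between -0.123 and 0.314, with 1 of 18 pairs over 0.1. The 6 pairs of the same diet lay between -0.123 and 0.0945. These values gave no sign that the numbers pair the samples. With 3 libraries per group they cannot show whether Crtc2 and GFP muscles share a mouse. With the replicate block the interaction called 0 genes and 1088 had an unadjusted p under 0.05, and the block within diet gave 0 and 831. Zeros were frequent in genes under 3 CPM, where a floor of 3 counts limits what can be detected.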

Other observations

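Gm13340, an unprocessed pseudogene on chromosome 2 (22588103 to 22589647, GRCm38), was among the 7 genes with the smallest interaction p and had the fully crossed pattern, at 151, 147 and 160.5 CPM in ADF Crtc2 muscle and 100.3, 66.8 and 70.1 CPM in fed Crtc2 muscle. With GFP the values were 79.9, 65.6 and 81.2 CPM under ADF and 107, 104 and 102 CPM in fed muscle, with an interaction of 1.42 ± 0.28 (adjusted p = 0.174). Of its 31-base words, 45.2% occur in transcripts of the mitochondrial genome. A search of predicted genes of at least 5 CPM, made after this value had been seen, found 7 others with at least 50% of such words, all on chromosome 1 between 24611535 and 24616197. All 7 had a positive interaction, with a median of 1.37, and 5 had an unadjusted p under 0.05. Lying next to each other in 1 stretch, they are not 7 independent results. Gm29216 had 1.37 ± 0.31 and Gm28437 1.300 ± 0.33. Their median response to ADF was 0.60 in Crtc2 muscle and -0.70 in GFP muscle. Reads of these pseudogenes may be shared with mitochondrially encoded genes, which were not analysed here.

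Myelin genes, from a list of 8 drawn up after the values had been seen, had 7 positive members and a median interaction of 1.64. Mbp had 2.48 ± 0.96 and Prx 3.16 ± 1.12, both structural proteins of myelinating Schwann cells. The summed level was 168, 274 and 138 CPM in ADF Crtc2 muscle and 63.5, 90.98 and 131 CPM in fed Crtc2 muscle. The values in ADF GFP muscle were 93.6, 114 and 77.5 CPM, and in fed GFP muscle 266, 73.9 and 124 CPM, so groups overlapped and fed GFP replicate 1 stood high. Red blood cell genes, drawn up likewise, had 4 of 5 negative members, with -2.89 ± 0.82 for the globin Hba-a1, and a summed level of 176, 69.9 and 103 CPM in ADF Crtc2 muscle and 71.1, 104 and 214 CPM in fed Crtc2 muscle. ADF GFP muscle had 396, 119 and 227 CPM and fed GFP muscle 73.98, 152 and 98.7 CPM. In both lists the libraries of a group differed by more than 1.5 times, except for the myelin genes in ADF GFP muscle. The median of the red blood cell list was between -1.38 and -0.03 over the alternatives.

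Of 14 basement membrane genes, another list drawn up after the values had been seen, 13 were negative, with a median of -0.97 and 5 at an unadjusted p under 0.05 (9 without the fed GFP replicate 3). The median level of the list was 51.83 CPM, and of all genes from 30 to 100 CPM 4.06% were negative at that p. Lamc1, a laminin chain, had -1.38 ± 0.35, Nid1, which links laminin to collagen, -1.34 ± 0.39, and Hspg2, perlecan, -1.06 ± 0.28. Of 25 genes of mitochondrial protein import and cristae, chosen in the same way, 21 were positive, with a median of 0.42; Timm23, a channel of the inner membrane, had 1.27 ± 0.36 and Immt, a cristae organiser, 0.57 ± 0.24.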
